A study of Mus musculus with 6 samples.

Results

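The c-Jun N-terminal kinases (JNK) stand at the end of a relay of protein kinases, and 10 genes of that relay were followed through 6 RNA-seq libraries of mouse mammary cells. The genes were *Mapk8* and *Mapk9*, which encode JNK1 and JNK2, the MAP2K genes *Map2k4* and *Map2k7*, the MAP3K genes *Map3k1*, *Map3k5*, *Map3k11* and *Map3k12*, and the scaffold genes *Mapk8ip1* and *Mapk8ip3*. Each was taken from the expression table by its symbol, and the 10 entries are part of 37753 entries that hold values. In this relay a MAP3K phosphorylates MAP2K proteins, and these phosphorylate a JNK. Per the study, MAP2K4 acts on a tyrosine of JNK and MAP2K7 on a threonine. The JNK then phosphorylates transcription factors such as c-Jun, a part of AP1. Scaffold proteins of the JIP family hold kinases of successive tiers together. Stress, cytokines and the loss of cell contacts are among the known stimuli of the pathway, and in epithelia it is known for roles in cell death, migration and morphogenesis.

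The reference group was MEC, 3 preparations of primary mammary epithelial cells of WAPCre+ genotype, each from a pool of 3 to 5 virgin females aged 10 to 12 weeks. These cells grew on collagen I until they covered 90% of the dish. The other group was MEKO, 3 cell lines (WAB 199, WAB 233 and WAB 336) established from mammary tumors of Mapk8KO Mapk9KO Cre+ mice after 2 passages on collagen I and transfer to standard dishes. All 6 libraries carry the C57/Bl6J strain label and the Cre transgene, so the reference cells have Cre too. Cre was driven by the promoter of the whey acidic protein gene, which is active in luminal cells and most active in pregnancy and lactation. Per the study, the tumor mice carried floxed *Mapk8* and *Mapk9*, which a cell that never used that promoter would keep. Whether any cells of the lines kept them was not tested. Each preparation or line gave 1 library. The tumors arose in parous and much older females, whereas MEC came from young virgins. Genotype, tumor origin, age, parity and culture history change together between the groups and cannot be told apart. The limma p-values set the difference between the groups against the spread of libraries within them, for these 6 libraries only. The comparison asks how the rest of the cascade was expressed in tumor cells that were made to lack its last kinases.

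Expression is given in FPKM, fragments per kilobase of transcript after scaling to the size of the library. Relative depth, read from the smallest values, was between 0.92 and 1.30 times that of MEC 1, and the number of reads is unknown. Log values of the 12461 tested genes correlated at 0.944 to 0.966 within MEC, at 0.856 to 0.903 within MEKO and at 0.793 to 0.855 between the groups (Pearson, across genes, which are not independent replicates). The luminal keratins and *Epcam* were present in all libraries, but their summed FPKM was 4989 to 8575 in MEC and 687 to 1891 in MEKO, and 3 of the 4 markers passed the call as lower. Basal markers summed to 1234 to 2196 in MEC and 1865 in line 199, against 9.89 in line 233 and 45.01 in line 336. Fibroblast markers summed to 95.7 to 179 in MEC and 1081 in line 199, of which *Col1a1* gave 600 and *Col1a2* 408. In contrast, *Dcn* was at 3.29 to 6.62 FPKM in MEC and 0.311 in line 199. *Lum* was at 0.507 to 1.28 FPKM in MEC and 0.0264 in line 199. The fibroblast sum was 2.38 for line 233 and 1.82 for line 336. Leukocyte markers summed to 20.3 to 39.9 in MEC and 0.809 to 23.5 in MEKO, with *Ptprc* under 0.399 FPKM in every library. Within that sum *Cd68* was at 3.46 to 6.59 in MEC and 0.771, 2.73 and 23.5 in lines 199, 233 and 336, whereas *Lyz2* was at 16.5 to 32.9 in MEC and at most 0.0182 in the lines. Endothelial markers summed to 1.47 to 12.8 in MEC and 0.159 to 0.430 in MEKO, and adipocyte markers summed to at most 0.186 in any library, with *Plin1* at 0. In bulk RNA, fewer cells of a type and less RNA per cell cannot be told apart, and the part of these cell types in the values below was not tested.

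The promoters of the deleted kinases and of *Jun*, which encodes the substrate that gave JNK its name, are shown because *Mapk8* and *Mapk9* are the members that were deleted and called, and *Jun* is the substrate gene with the largest decrease. The sequences come from RefSeq on GRCm38.p6 and cover 250 bases before to 50 bases after the annotated start, and 9 of the 10 members had an entry. Capitals mark matches, on either strand, to AP1 (TGANTCA), a CRE-like element (TGACNTCA), the GC box (GGGCGG), the CCAAT box (CCAAT) and the TATA box (TATAAA). The matches in these 3 windows do not overlap one another.
*Mapk8* (chr14:33447109-33447408, minus strand): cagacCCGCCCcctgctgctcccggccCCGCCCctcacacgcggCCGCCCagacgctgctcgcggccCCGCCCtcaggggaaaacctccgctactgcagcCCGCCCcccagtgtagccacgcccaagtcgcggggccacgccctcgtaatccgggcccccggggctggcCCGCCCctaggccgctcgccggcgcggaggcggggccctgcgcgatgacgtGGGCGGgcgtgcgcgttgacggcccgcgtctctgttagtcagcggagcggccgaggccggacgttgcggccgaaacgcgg
*Mapk9* (chr11:49846501-49846800, plus strand): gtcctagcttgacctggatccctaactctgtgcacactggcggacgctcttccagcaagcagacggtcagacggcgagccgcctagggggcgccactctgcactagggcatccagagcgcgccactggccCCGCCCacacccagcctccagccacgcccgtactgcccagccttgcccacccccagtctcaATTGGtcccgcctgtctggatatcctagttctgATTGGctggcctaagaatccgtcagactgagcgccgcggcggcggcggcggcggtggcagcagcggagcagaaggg
*Jun* (chr4:95052173-95052472, minus strand): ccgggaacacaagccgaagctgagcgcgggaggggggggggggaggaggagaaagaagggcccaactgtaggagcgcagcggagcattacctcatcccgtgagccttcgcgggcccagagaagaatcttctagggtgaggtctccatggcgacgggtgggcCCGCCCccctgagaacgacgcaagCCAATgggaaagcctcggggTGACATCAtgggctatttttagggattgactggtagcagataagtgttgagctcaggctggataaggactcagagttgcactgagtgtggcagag
*Mapk8* has 2 windows in the RefSeq table, and the printed one lies at the start of the whole annotated gene. It held 7 GC boxes and none of the other motifs, with a GC content of 77.7%, whereas the other window (chr14:33410975-33411274), inside the gene, held no match to any of the 5 motifs and had 34.3% GC. The *Mapk9* window held 1 GC box and 2 CCAAT boxes at 66.7% GC. The *Jun* window held 1 GC box, 1 CCAAT box and a CRE-like element 45 bases before the start, at 60.0% GC. The median GC content was 52.7% over all promoter windows. Of 32851 such windows, 35.7% held a GC box, 37.4% a CCAAT box, 13.6% a TATA box, 8.83% a CRE-like element and 7.81% an AP1 match. These matches describe letters in the windows and say nothing of binding.

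*Mapk8* encodes JNK1 and lies on the minus strand of chromosome 14 (chr14:33377898-33447158, GRCm38). Its level was 23.1, 25.1 and 19.2 FPKM in MEC 1, 2 and 3, against 5.93, 3.12 and 1.37 FPKM in lines 199, 233 and 336. All 3 lines were below all 3 preparations, with line 199 the highest of the lines. The mean was 22.5 ± 2.98 FPKM in MEC and 3.47 ± 2.30 in MEKO (SD, n = 3 each). The decrease passed the call, with a log2 fold change of -2.52 (SE 0.39, 95% interval -3.46 to -1.58, limma adjusted p = 0.0146). Fold changes throughout are MEKO against MEC on log2(FPKM + 1), which understates the change of genes with low values, and the call needs a limma adjusted p under 0.05 and a log2 change beyond 0.75.

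*Mapk9* encodes JNK2 and lies on the plus strand of chromosome 11 (chr11:49846751-49886421). It stood at 24.4, 21.5 and 22.1 FPKM in the 3 MEC preparations and at 7.62, 3.15 and 3.07 FPKM in lines 199, 233 and 336. The groups did not overlap, and line 199 again had the highest value of the lines. The mean was 22.7 ± 1.53 FPKM in MEC and 4.61 ± 2.60 in MEKO, a decrease of -2.17 on the log2 scale (SE 0.31, 95% interval -2.93 to -1.41, limma adjusted p = 0.0122). The exact permutation test (two-sided) gave p = 0.1 for *Mapk8* and for *Mapk9*, the smallest value that 3 against 3 allows. Both calls were lost when any 1 of the MEC libraries was left out, although the changes then stayed between -2.62 and -2.44 for *Mapk8* and between -2.20 and -2.12 for *Mapk9*. Without MEC 1, MEC 2 or MEC 3 the limma adjusted p was 0.0762, 0.0727 and 0.0552 for *Mapk8* and 0.0711, 0.0612 and 0.0538 for *Mapk9*.

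The transcripts of both targeted genes were thus still listed above 0 in each line. These are RNA levels, and the study reported no JNK protein in its MEKO tumor cells by immunoblot. As a share of the MEC mean, *Mapk8* stood at 26.4%, 13.9% and 6.09% in lines 199, 233 and 336. The matching shares of *Mapk9* were 33.6%, 13.9% and 13.5%. An FPKM value covers the whole gene, and which exons Cre removes is not given in the sources used here, so these shares are not the shares of intact transcript. Line 199 kept the largest share of both genes. Its basal marker sum of 1865 FPKM lay within the MEC range, and its fibroblast marker sum of 1081 FPKM came mostly from collagen genes. The study found CK5, the product of *Krt5*, in adenosquamous carcinomas of this genotype, and proposes that their tumor cells may partially differentiate. Whether other cell types were present in line 199, and their part in the residual *Mapk8* and *Mapk9* RNA, was not tested.

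The third JNK gene, *Mapk10*, encodes JNK3 and is known chiefly from the nervous system. It was listed at 0.0424, 0 and 0.0242 FPKM in MEC and at 0.525, 0.0393 and 0 in lines 199, 233 and 336. These levels were under the mean of 1 FPKM required for a test, and the groups overlapped. Summed FPKM of the 3 JNK genes was 47.6, 46.6 and 41.3 in MEC and 14.1, 6.31 and 4.44 in lines 199, 233 and 336, or 31.2%, 13.97% and 9.82% of the MEC mean. *Mapk10* made up 3.73% of that sum for line 199 and 0.623% for line 233, and was at 0 for line 336. *Mapk8* made up 46.5% to 53.8% of the sum in MEC and 42.1%, 49.4% and 30.9% in the lines.

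**Figure D1:**
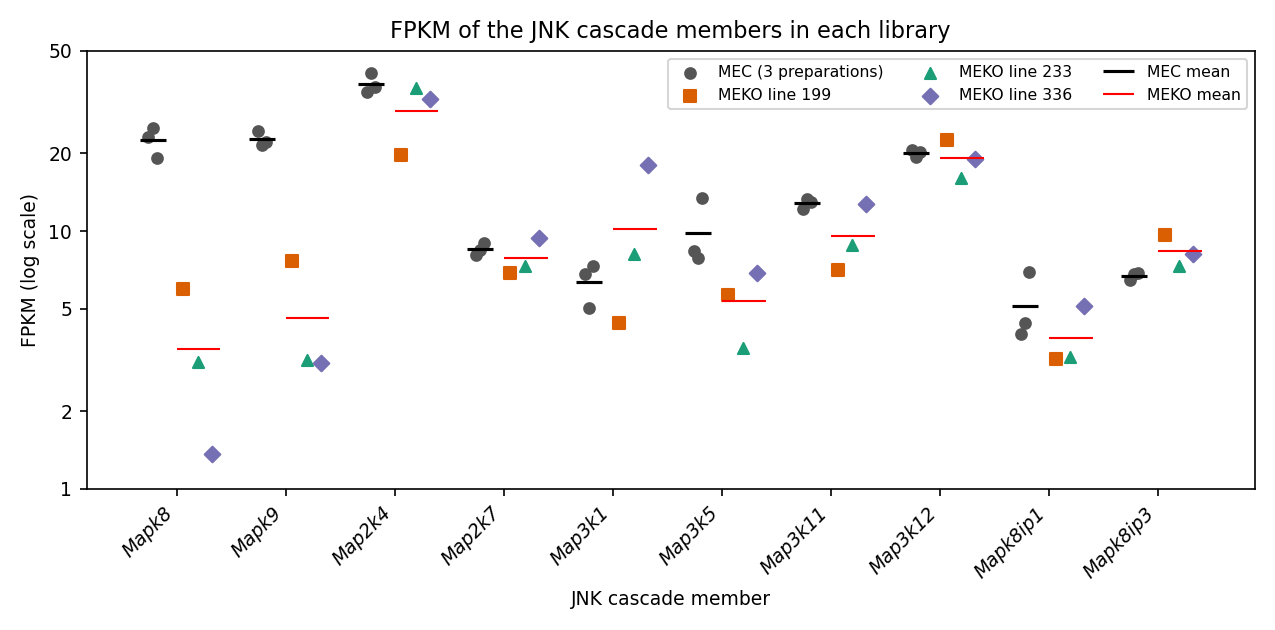
FPKM (log axis) of the 10 JNK cascade genes in each library, with circles for the 3 MEC preparations, squares, triangles and diamonds for MEKO lines 199, 233 and 336, and horizontal bars for the group means. *Mapk8* and *Mapk9* sit at 19.2 to 25.1 FPKM in MEC and at 1.37 to 7.62 FPKM in the lines, whereas the points of most other genes lie close together or overlap.

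Of the 10 genes, all of which were tested, these 2 passed the call as lower, none passed as higher, and 8 did not pass. Over all tested genes 9.9% passed in either direction, 7.26% as lower and 2.64% as higher. The median log2 fold change was -0.35 over the 10 genes and 0.01 over all tested genes. The 2 called genes are the ones that were deleted, so a lower level was built into the design and enters this median. Groups did not overlap for 4 of the 10 genes, 3 with the lines below and 1 with the lines above, against 18.7% and 18.5% of all tested genes, or 37.2% in either direction. These 4 include the deleted genes *Mapk8* and *Mapk9*, and the others were *Map3k5* (lines below) and *Mapk8ip3* (lines above).

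*Map2k4* encodes MKK4, which phosphorylates JNK and p38 kinases, and lies at chr11:65688243-65788297 on the minus strand. It had the highest mean of the members in both groups, at 34.6, 40.9 and 36.0 FPKM in MEC and at 19.7, 35.7 and 32.5 FPKM in lines 199, 233 and 336. In line 199 *Map3k12* was higher, at 22.5 FPKM. Line 199 stood apart at 52.9% of the MEC mean, while line 233 lay within the MEC range. The log2 fold change of -0.37 had a 95% interval of -0.96 to 0.21 and did not pass (limma adjusted p = 0.358). The interval leaves room for a lower level past the 0.75 threshold.

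*Map2k7* encodes MKK7, which acts on JNK alone, and lies at chr8:4238740-4247897 on the plus strand. The table gives it in 1 entry with *Gm14378*, and 35.2% of its exon bases are shared with *Gm49320* on the same strand, so its level is uncertain. The entry stood at 8.05, 8.43 and 9.02 FPKM in MEC and at 6.85, 7.34 and 9.43 FPKM in the lines. Lines 199 and 233 were below the MEC range and line 336 above it, and the log2 fold change was -0.11 (95% interval -0.53 to 0.31, limma adjusted p = 0.717). This interval holds no change of 0.75 in either direction.

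*Map3k1* encodes MEKK1, a MAP3K that also carries a ubiquitin ligase domain, and lies at chr13:111746428-111808993 on the minus strand. Its level was 6.79, 5.01 and 7.29 FPKM in MEC, against 4.39, 8.17 and 18.0 FPKM in lines 199, 233 and 336. The 3 lines lay below, just above and well above the MEC range, at 69.0%, 128% and 283% of the MEC mean. Over the group the log2 fold change was 0.43, with a 95% interval of -0.67 to 1.52, the widest of the 10 genes (limma adjusted p = 0.569). It rested on line 336, without which it was -0.05.

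*Map3k5* encodes ASK1, a kinase that thioredoxin holds inactive until oxidative stress, and lies at chr10:19934472-20142753 on the plus strand. It stood at 8.36, 7.84 and 13.4 FPKM in MEC and at 5.66, 3.51 and 6.88 FPKM in lines 199, 233 and 336. All lines were below all preparations, and line 233 was lowest at 35.6% of the MEC mean. The log2 fold change of -0.78 (SE 0.29, 95% interval -1.49 to -0.07) had a limma p of 0.0362 that did not pass adjustment over all genes (adjusted p = 0.149).

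*Map3k11* encodes MLK3, a mixed-lineage kinase that binds the GTPases Cdc42 and Rac, and lies at chr19:5688742-5702865 on the plus strand. Its level was 12.2, 13.4 and 13.0 FPKM in MEC and 7.08, 8.82 and 12.7 FPKM in the lines. Lines 199 and 233 were below the MEC range, at 55.1% and 68.7% of the MEC mean, and line 336 was within it. The log2 fold change of -0.43 (95% interval -0.96 to 0.11) did not pass (limma adjusted p = 0.264). Of its exon bases 9.79% are shared with an antisense gene, and the sources used here do not give whether strand was used in counting.

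*Map3k12* encodes DLK, a mixed-lineage kinase known for its part in the response of axons to injury, and lies at chr15:102497646-102517064 on the minus strand. It was listed at 20.6, 19.4 and 20.2 FPKM in MEC and at 22.5, 16.1 and 18.9 FPKM in lines 199, 233 and 336. Line 199 was above the MEC range and the other lines were below it, with a log2 fold change of -0.07 (95% interval -0.47 to 0.33, limma adjusted p = 0.800). The direction turned to 0.04 without line 233. Its exons share 17.5% of their bases with *Pcbp2* on the opposite strand, which stood at a mean of 130 FPKM in MEC and 134 in MEKO, so without strand the reads of the 2 genes cannot be told apart there.

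The scaffold gene *Mapk8ip1* encodes JIP1, which binds mixed-lineage kinases, MKK7 and JNK, and lies at chr2:92383676-92401263 on the minus strand. It had the lowest mean of the members in MEC, at 4.002, 4.41 and 6.93 FPKM, and stood at 3.19, 3.26 and 5.14 FPKM in the lines. Lines 199 and 233 were below the MEC range and line 336 within it, and the log2 fold change of -0.32 (95% interval -0.97 to 0.32) did not pass (limma adjusted p = 0.462).

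The other scaffold gene, *Mapk8ip3*, encodes JIP3, which links JNK signaling to kinesin transport, and lies at chr17:24892153-24936977 on the minus strand. Its entry, joined with *Eme2*, stood at 6.46, 6.82 and 6.89 FPKM in MEC and at 9.67, 7.29 and 8.12 FPKM in lines 199, 233 and 336. It was the single member with all lines above all preparations, although the log2 fold change was 0.27 (95% interval -0.13 to 0.67) and did not pass (limma adjusted p = 0.329). Of the exon bases of *Mapk8ip3*, 10.7% are shared with *Eme2* on the same strand. On the opposite strand 8.99% are shared with *Mrps34* and 3.96% with *Nme3*, so this level too is uncertain.

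**Figure D2:**
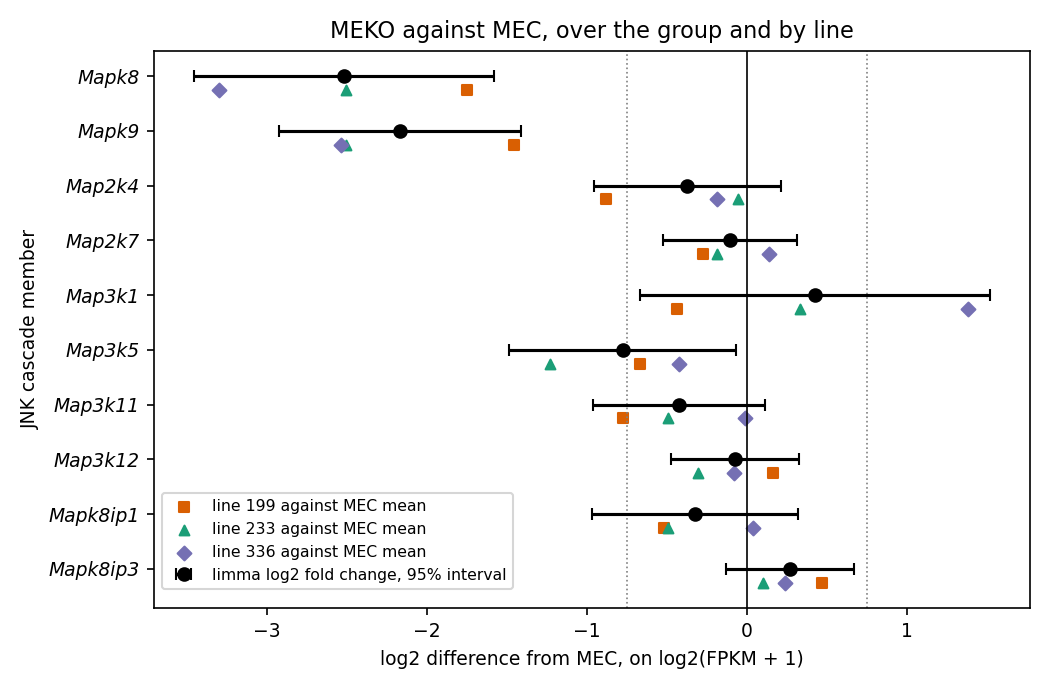
Log2 difference from MEC on log2(FPKM + 1) for the 10 genes, as the limma fold change with its 95% interval (black) and as the log2 ratio of each line to the MEC mean (colored symbols), with dotted lines at the call threshold of 0.75 in either direction. *Mapk8* and *Mapk9* lie left of the threshold over the group and in each line, the interval of *Map3k5* runs from -1.49 to -0.07, and the other 7 intervals include 0.

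By mean FPKM in MEC, *Mapk9* (22.7) and *Mapk8* (22.5) came directly after *Map2k4* (37.2) and before *Map3k12* (20.1). The values of *Mapk8* and *Mapk9* overlapped in MEC, as did those of *Mapk8* and *Map3k12*. Below them came *Map3k11* (12.8), *Map3k5* (9.86) and *Map2k7* (8.499), with each neighbor overlapping the next, and then *Mapk8ip3* (6.72), *Map3k1* (6.36) and *Mapk8ip1* (5.11), whose values also overlapped. In MEKO only *Map2k4* kept its place in the order. There *Map2k4* (29.3) and *Map3k12* (19.2) led, then *Map3k1* (10.2), *Map3k11* (9.54), *Mapk8ip3* (8.36) and *Map2k7* (7.87). *Map3k5* (5.35), *Mapk9* (4.61), *Mapk8ip1* (3.86) and *Mapk8* (3.47) were lowest, and every gene in this order overlapped the next.

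Because FPKM is per length, paralogs and partners were also set against each other within a library, as the log2 ratio of their levels with 0.1 added to each. *Map3k1* over *Map3k5* was -0.30, -0.64 and -0.87 in MEC and -0.36, 1.20 and 1.38 in lines 199, 233 and 336. Lines 233 and 336 had more of the MEKK1 transcript than of the ASK1 transcript and every other library had less, a difference of 1.34 between the group means (exact permutation test, two-sided, p = 0.2, Benjamini-Hochberg adjusted over 5 pairs 0.375). *Mapk8* over *Mapk9* differed by -0.48, *Map2k4* over *Map2k7* by -0.26, *Map3k11* over *Map3k12* by -0.39 and *Mapk8ip1* over *Mapk8ip3* by -0.69 from MEC to MEKO. The groups overlapped for all 5 pairs, with an exact permutation p between 0.2 and 0.4, and 3 against 3 cannot go below 0.1.

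Each line was also placed against the range of the 3 MEC libraries. Line 199 had 8 members below that range and 2 above it (*Map3k12* and *Mapk8ip3*). Line 233 had 7 below, 2 above (*Map3k1* and *Mapk8ip3*) and 1 within. Line 336 had 5 below, 3 above (*Map2k7*, *Map3k1* and *Mapk8ip3*) and 2 within. Over all tested genes, 39.1%, 37.9% and 37.4% lay below the MEC range in lines 199, 233 and 336, and 40.2%, 37.4% and 39.2% lay above it. The deleted genes *Mapk8* and *Mapk9* were among the members below the MEC range in each line. With 1 library a line there is no test of one line against another.

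The genes around each member were described next, as the median log2 ratio of each line to the MEC mean over tested protein-coding genes within 5 Mb of its start. In line 199, *Mapk8* was at -1.75 and its 46 neighbors at a median of -0.48, *Mapk9* was at -1.46 and its 68 neighbors at -0.53, and *Map2k4* was at -0.88 and its 112 neighbors at -0.41. Of 10016 windows of the same kind over the genome, 6.51%, 5.47% and 8.70% had a median as low or lower in that line. The medians around *Mapk8*, *Mapk9* and *Map2k4* all lay within the 5th to 95th percentile of those windows in line 199 (-0.57 to 0.37). In line 233 the neighbor medians of these 3 genes were 0.03, -0.09 and 0.04, with *Mapk8* at -2.50, *Mapk9* at -2.51 and *Map2k4* at -0.05. In line 336 they were 0.08, -0.09 and 0.04, with *Mapk8* at -3.30, *Mapk9* at -2.54 and *Map2k4* at -0.18. In every line few neighbors were lower than the JNK genes, with 4.35%, 0% and 2.17% of neighbors lower than *Mapk8* in lines 199, 233 and 336, and 7.35%, 4.41% and 4.41% lower than *Mapk9*. *Map3k1* in line 336 was at 1.38, against a median of 0.09 for its 23 neighbors, and 95.7% of them were lower. *Map3k11* in line 199 was at -0.78 against 0.16 for its 156 neighbors. Other members had neighborhoods near or past the ends of the range. The neighbors of *Map3k5* in line 233 had a median of -0.33, with 5.13% of windows as low or lower. Those of *Map3k11* in line 336 had a median of 0.352, above the 95th percentile of 0.344 in that line, with 95.8% of windows as low or lower. Windows overlap and share genes, so these shares are descriptions, and the background over the genome was added after the member values were seen.

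**Figure D3:**
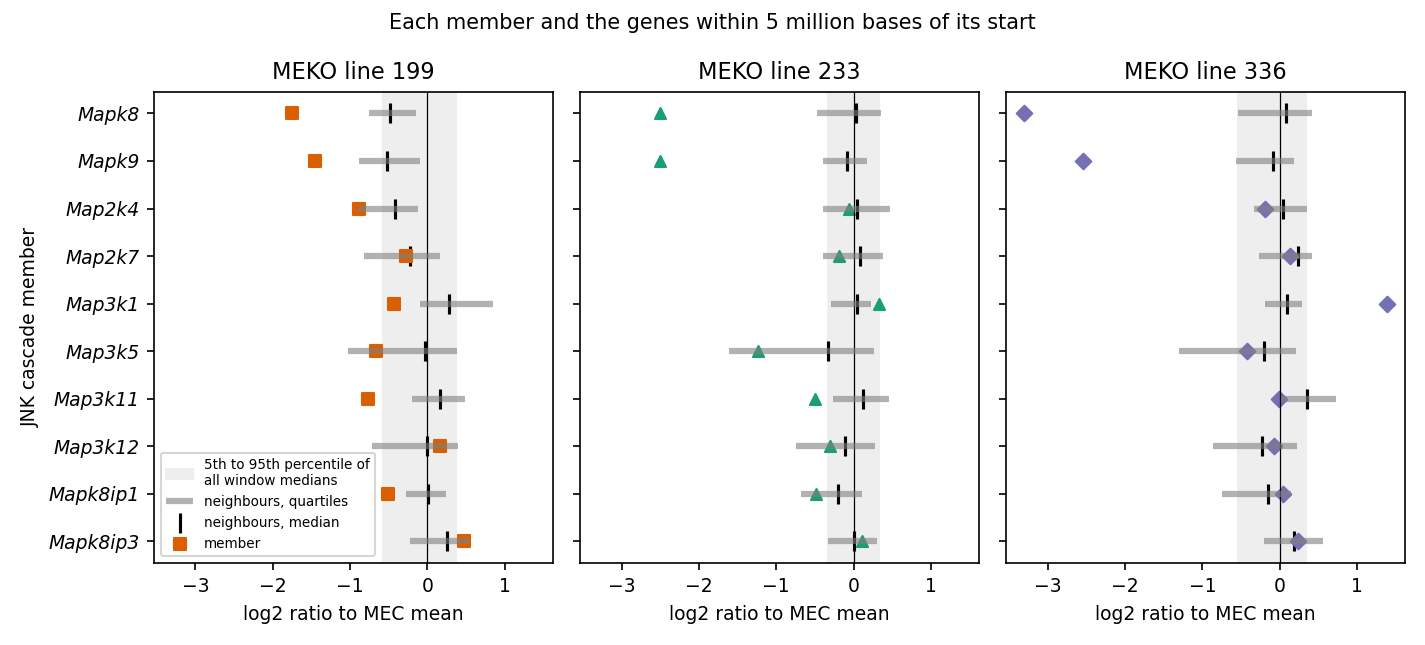
Log2 ratio to the MEC mean in lines 199, 233 and 336 (1 panel each) for each of the 10 genes (colored symbol) and for tested protein-coding genes within 5 Mb (tick at the median, grey bar from the first to the third quartile), with a shaded band from the 5th to the 95th percentile of all window medians. In line 199 the neighbors of *Mapk8*, *Mapk9* and *Map2k4* have medians of -0.48, -0.53 and -0.41, whereas *Map3k1* at 1.38 in line 336 lies far to the right of its neighbors.

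The genes most like *Mapk8* across the 6 libraries, by Pearson correlation of log2(FPKM + 1), were *Tacc1* (r = 0.999), *Daam1* (0.998) and *Rftn1* (0.997). *Rftn1* stood at 9.29, 11.2 and 8.88 FPKM in MEC and at 1.76, 0.437 and 0 in lines 199, 233 and 336, so it followed the order of the lines as well as the gap between groups. The genes most like *Mapk9* were *Pag1* (0.999), *8030451A03Rik* (0.998) and *Spata13* (0.998). *Mapk8* and *Mapk9* correlated with each other at 0.982, which ranked 55 among the 12460 genes compared with *Mapk8* and 104 among those compared with *Mapk9*. A coefficient of at least 0.95 was reached by 358 genes for *Mapk8* and 413 for *Mapk9*. The 6 points fall into the 2 groups, so any gene with a large gap between them scores high, and the coefficients are descriptions without a test.

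The wider pathway was described with 71 further genes in 6 lists, of which 65 were tested. Of these, 6 passed the call as lower and 1 as higher, against 7.26% and 2.64% of all tested genes, and the median log2 fold change was -0.01. The genes that passed were the JNK substrate genes *Jun*, *Irs1* and *Stmn1*, the MAP3K gene *Map3k6*, the upstream kinase genes *Tnik* and *Mink1* and the GTPase gene *Cdc42*. *Mapk10*, *Map2k6*, *Map3k13*, *Map3k15*, *Map4k1* and *Mapk8ip2* were under the filter and not tested.

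*Jun* encodes c-Jun, the AP1 subunit after which JNK is named. It stood at 53.1, 58.9 and 60.3 FPKM in MEC and at 10.5, 8.91 and 8.15 FPKM in lines 199, 233 and 336. All lines were far below all preparations, and the spread within each group was narrow, with means of 57.4 ± 3.79 and 9.18 ± 1.18 FPKM (SD, n = 3 each). The log2 fold change was -2.53 (SE 0.15, 95% interval -2.89 to -2.16, limma adjusted p = 0.000927). *Jun* passed the call under all 12 alternatives, with a limma adjusted p from 0.000826 to 0.0125. Line 199, with the most *Mapk8* and *Mapk9* of the lines, also had the most *Jun*, but the 3 lines differed in *Jun* by little beside the gap to MEC.

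Among the other JNK substrates, *Irs1* encodes an adaptor of the insulin receptor on which JNK is known to act. It fell from 9.78, 8.44 and 10.7 FPKM in MEC to 3.70, 5.84 and 3.55 FPKM in the lines (log2 fold change -1.007, limma adjusted p = 0.0377). *Stmn1* encodes stathmin, which destabilizes microtubules, and fell from 124, 117 and 103 FPKM to 67.1, 35.5 and 56.7 FPKM (log2 fold change -1.14, limma adjusted p = 0.0386). Neither gene overlapped between groups, and 18.7% of all tested genes likewise had every line below every preparation. The remaining 11 of 14 substrate genes did not pass, 10 of the 14 had a log2 fold change below 0, and the list median was -0.37. Over all tested genes 7.26% were called lower, 6080 of 12461 had a log2 fold change below 0 and the median was 0.01.

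Upstream of JNK, *Map3k6* encodes ASK2, the partner of ASK1. Its level was 6.16, 9.002 and 4.25 FPKM in MEC and 2.39, 0.912 and 0.681 FPKM in the lines (log2 fold change -1.70, limma adjusted p = 0.0367). It was the single one of 13 tested other MAP3K genes to pass, against 9.9% of all tested genes in either direction. Its values lay below MEC in all lines, as did those of *Map3k5* and of 18.7% of all tested genes. *Map3k7*, which encodes TAK1, stood at 20.7, 21.6 and 23.9 FPKM in MEC and 31.4, 37.7 and 23.6 FPKM in the lines, overlapped between groups and did not pass (log2 fold change 0.44, limma adjusted p = 0.207).

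The Ste20-type kinase genes *Tnik* and *Mink1*, which encode close relatives, moved in opposite directions. *Tnik* was at 6.004, 7.67 and 8.92 FPKM in MEC and at 0.371, 1.89 and 1.39 FPKM in the lines (log2 fold change -1.998, limma adjusted p = 0.0165). *Mink1* was at 11.4, 10.4 and 9.44 FPKM in MEC and at 22.9, 22.4 and 15.9 FPKM in the lines (log2 fold change 0.89, limma adjusted p = 0.0362). Neither overlapped between the groups, as was so for 37.2% of all tested genes in either direction. *Cdc42*, a small GTPase that binds MLK3, fell from 306, 310 and 305 FPKM to 191, 127 and 184 FPKM (log2 fold change -0.90, limma adjusted p = 0.0333). These 3 were the called genes among 16 tested genes of that list, against 9.9% of all tested genes called in either direction. All called genes of the wider lists other than *Jun* lost the call without MEC 1, without MEC 2 and without MEC 3, with limma adjusted p-values from 0.0680 to 0.158. Calls were also lost without line 199 for *Mink1* and *Irs1*, without line 233 for *Map3k6*, *Mink1* and *Cdc42*, and without line 336 for *Map3k6*, *Cdc42*, *Irs1* and *Stmn1*. With no filter on low values the limma adjusted p was 0.0699 for *Map3k6*, 0.0672 for *Irs1* and 0.0579 for *Stmn1*, and with a mean of at least 5 FPKM it was 0.0528 for *Irs1*, so these calls were lost as well.

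No gene of the other MAPK, other MAP2K or other scaffold lists passed the call. Of the 7 other MAPK genes tested, 6 had a log2 fold change above 0, as did 6381 of 12461 over all tested genes. *Mapk14*, which encodes p38 alpha, overlapped between groups, with 21.4 to 24.5 FPKM in MEC and 20.7 to 30.1 FPKM in the lines (log2 fold change 0.20, limma adjusted p = 0.499). Of the other scaffold genes, *Spag9*, which encodes JIP4, stood at 20.4 to 26.7 FPKM in MEC and 14.4 to 26.04 FPKM in the lines (log2 fold change -0.30, limma adjusted p = 0.459), and *Mapk8ip2* was at or under 0.0047 FPKM in every library.

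**Figure D4:**
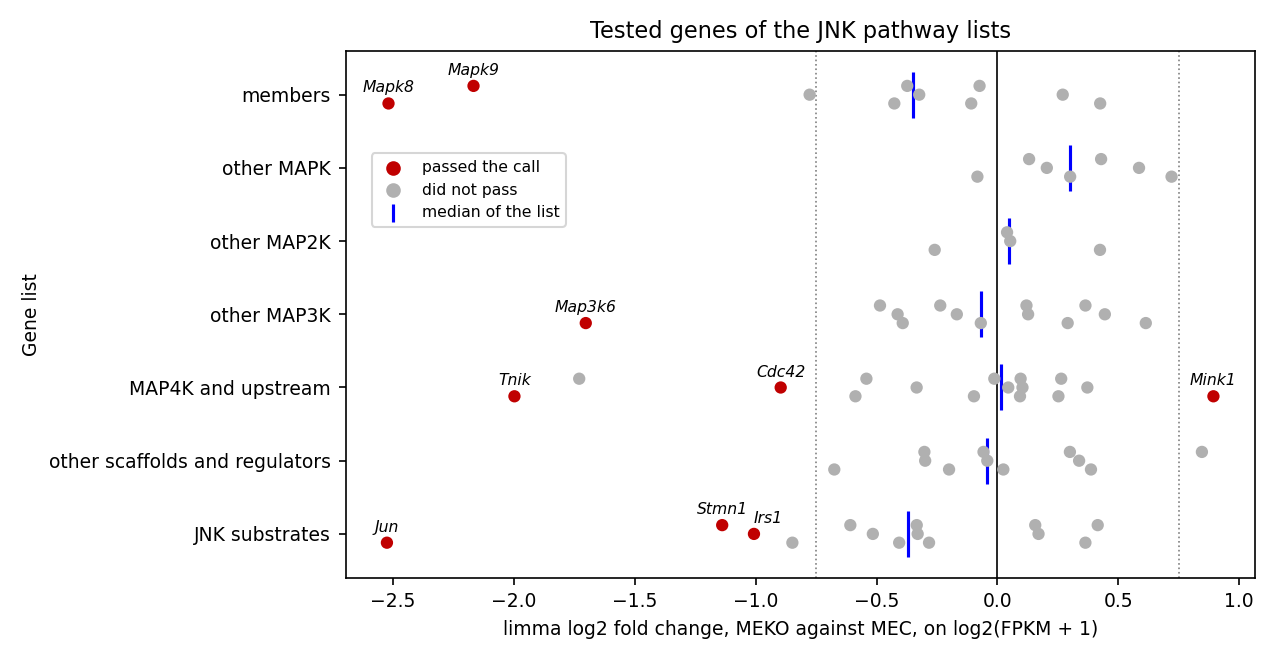
Limma log2 fold change, MEKO against MEC, of each tested gene in the 10 members and in 6 wider JNK pathway lists, with called genes in red and named, other genes in grey, a blue tick at each list median and dotted lines at the threshold of 0.75. *Mapk8*, *Mapk9* and *Jun* lie at the far left, *Mink1* is the single called gene on the right, and most points lie between the dotted lines.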

How the data were processed

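Processed RNA-seq values of 3 MEC preparations and 3 MEKO lines were used, grouped by sample title. Per the labels and the study's methods, the authors trimmed the reads (paired-end, 150 bp), aligned them to GRCm38 with Bowtie2 and TopHat2 2.0.14 and quantified genes with Cufflinks 2.2.1. The deposited FPKM values are normalized by the authors for length and library size, with no read counts, so no counting interval was computed. Of 37755 table entries 2 hold no value. A symbol on several entries was read from the one highest on average.

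Genes averaging 1 FPKM or more over the libraries were tested on log2(FPKM + 1) in R 4.3.3 with limma 3.58.1, with the variance prior following mean expression, and p-values of all 12461 were adjusted by Benjamini-Hochberg. The call thresholds follow the study. Its Cuffdiff comparison needs reads and was not repeated. The fit was tested on simulated data. Ratios used a pseudocount of 0.1. Positions and exon overlaps came from GENCODE M21, and promoters from RefSeq. Alternatives were a pseudocount of 0.1, no filter, a filter at 5 FPKM, quantile and upper-quartile scaling, no trend, and each library left out.

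The members and gene lists were chosen with earlier results of these data known. The text names all members, the called genes of the wider lists, *Mapk10*, *Map3k7*, *Mapk8ip2*, *Spag9*, *Jun* and *Mapk14*, cell type markers, and the 3 genes most like *Mapk8* and *Mapk9*. Another gene covered by this rule is not reported here.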

Additional observations from a re-analysis of the deposited data

How the results depend on the processing

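*Mapk8* and *Mapk9* were lower in MEKO and passed the limma call under 9 of 12 alternatives each. The count of members called lower was 0 to 2 when libraries were left out in turn, with 0 without any 1 of the MEC libraries, and no member was called higher under any of the 12 alternatives. With 1 library left out the log2 fold change ran from -2.90 to -2.13 for *Mapk8* and from -2.52 to -1.98 for *Mapk9*. *Map3k1* ran from -0.053 to 0.86, turning negative without line 336, and *Map3k12* from -0.19 to 0.041, turning positive without line 233. The other 6 members kept their direction, and none of them passed. The 5 ratios kept their direction under 7 alternatives. Of the wider lists, 3 genes were called lower with no filter on low values, 3 with a mean FPKM of at least 5, and 1 to 6 with a library left out, *Jun* in each of these. The count called higher was 2 with quantile normalization (*Mapk12* and *Mink1*) and 0 to 1 with a library left out. *Mapk8ip1* could not be fitted with the filter at 5 FPKM, nor could *Tnik* and *Map3k6*. Over all genes 905 were lower and 329 higher, against 783 and 477 with quantile normalization (which put the median log2 fold change of all genes at 0.10), 501 and 237 with the filter at 5 FPKM, and 1340 and 546 without line 199, and the total fell to 300 without MEC 1, 336 without MEC 2 and 560 without MEC 3. Every fit with a library left out had fewer samples. *Mapk8* and *Mapk9* lost the call without each MEC library but kept it without each MEKO line. The total called was 1234 with all libraries and 1886, 984 and 902 without lines 199, 233 and 336. Why the loss of calls depended on the library left out was not tested. No paired analysis was possible because the groups share no replicate numbers. Read depth is unknown, and genes with low FPKM are measured least precisely.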
